A study of Mus musculus with 10 samples.

Results

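The SOX proteins are transcription factors that bind DNA through an HMG box, and 10 of their genes were followed here at the level of promoter H3K4me3: *Sox2*, *Sox17*, *Sox7*, *Sox4*, *Sox9*, *Sox11*, *Sox13*, *Sox15*, *Sox18* and *Sox21*. The 10 were chosen by name with earlier results of these data known, and the pattern of *Sox2* and *Sox17* was the reason for looking at this family. They are 10 of 21951 protein-coding genes of the annotation (GENCODE release M21 on GRCm38). A promoter window reached from 1000 bp before each annotated transcription start site (TSS) of the gene to 100 bp after it, and a peak that shared at least 1 bp with a window marked the gene. The data are CUT&Tag libraries, an assay in which an antibody brings the transposase Tn5 to a histone mark so that DNA is cut and tagged there, and the antibody was against H3K4me3. Naive extra-embryonic endoderm (nEnd) is a mouse culture model of the primitive endoderm, in which cells with an epiblast-like identity also arise, and the study asked how the chromatin of its subpopulations is set. Cells of the OCT4-mCherry reporter line, without any treatment, were sorted by FACS on mCherry and on surface PDGFRA stained with APC. Oct4+ nEnd carried the OCT4 reporter, Pdgfra+ nEnd carried PDGFRA, and DP nEnd were double positive. Oct4+ nEnd was measured in 4 libraries and DP and Pdgfra+ nEnd in 3 each, all labelled as this reporter line, so the gates define the groups.

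SOX proteins bind short sites of the ACAATG and ACAAAG type and act mostly in pairs with other factors. SOX2, of the SOXB1 group, binds with OCT4 at genes of the pluripotent epiblast, whereas SOX17, of the SOXF group, is a regulator of the endoderm that can also pair with OCT4. H3K4me3 lies around the start sites of genes that are transcribed or held ready for transcription, and broad domains of it mark genes of cell identity in many tissues. *Pou5f1*, which encodes OCT4, and *Pdgfra* served as a check of the sort.

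The authors deposited, for each library, the peaks called by SEACR against an IgG control, each with its total signal (coverage summed over the peak) and its highest coverage. Coverage was not scaled between libraries, so each peak was given its percentile among the peaks of its own library, with 100 for the strongest, and a gene without a promoter peak has percentile 0. The libraries held 3477 to 10545 peaks, and since the lists carry no read numbers the depth is unknown, so an absent peak means that none was called. Oct4+ nEnd replicates 3 and 4 held the fewest peaks, 3477 and 4887, and replicate 3 is not part of the deposited Oct4+ consensus list. The *Pou5f1* promoter peak lay at percentiles 99.3 to 99.9 in Oct4+ nEnd and 62.2 to 72.4 in DP nEnd, and had no peak in Pdgfra+ nEnd. The *Pdgfra* promoter lay at 99.8 or above in DP and Pdgfra+ nEnd and had a peak in 1 of 4 Oct4+ libraries, at 15.7. By the study's methods nEnd was grown on mouse embryonic fibroblasts, a feeder layer whose part in the values was not tested. Of 15 fibroblast markers 0 to 2 had a promoter peak in any library. *Twist1* had one in 2 Oct4+, 2 DP and 1 Pdgfra+ libraries and *Tbx15* in 1 DP and 1 Pdgfra+ library. *Col1a1*, *Col1a2*, *Col3a1* and *Thy1*, among others, had none in all 10. Of 6 mesoderm markers 0 to 2 had a peak. Of 7 neural and neural crest markers 0 to 2 had one, and of these *Foxd3* was marked in 4 of 4 Oct4+ libraries and in none of the others, as was *Tfap2c* among 7 trophectoderm markers (1 to 3 marked per library). *Gata3* of that list was marked in 3 of 3 DP and 3 of 3 Pdgfra+ libraries and in no Oct4+ library. *Cdx2* was marked in 2 DP and 2 Pdgfra+ libraries and *Eomes* in 2 Oct4+, 3 DP and 1 Pdgfra+ libraries. *Elf5*, *Hand1* and *Krt7* had no peak in any library. These marker lists do not identify cells, and any part of other cell types in the SOX values was not tested.

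The promoters of 4 members show the sequence that these peaks covered. RefSeq's table for GRCm38.p6 gives 250 bases before to 50 after each start, and it matched 6 of the 10 members (*Sox2*, *Sox4*, *Sox11*, *Sox13*, *Sox15* and *Sox21*). Its starts are not always the GENCODE TSS used elsewhere here. The *Sox2*, *Sox15* and *Sox11* windows lie wholly upstream of those TSS, which are at 34650405, 69655314 and 27342574. *Sox2* and *Sox15* are shown because their peaks were in all 4 Oct4+ libraries, *Sox21* because its strongest peaks were in DP and Pdgfra+ nEnd, and *Sox13* because it was marked in all 10 libraries. Each is written 5′ to 3′ on the gene's strand in lower case, with every CpG dinucleotide in capitals.
*Sox2*, chr3:34649745-34650044, plus strand: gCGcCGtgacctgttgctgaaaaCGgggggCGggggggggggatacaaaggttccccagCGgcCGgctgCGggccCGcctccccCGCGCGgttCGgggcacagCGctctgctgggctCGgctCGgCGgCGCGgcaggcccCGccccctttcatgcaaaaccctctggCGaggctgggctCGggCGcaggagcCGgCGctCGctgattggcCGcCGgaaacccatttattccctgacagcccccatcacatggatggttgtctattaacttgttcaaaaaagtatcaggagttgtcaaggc
*Sox15*, chr11:69654787-69655086, plus strand: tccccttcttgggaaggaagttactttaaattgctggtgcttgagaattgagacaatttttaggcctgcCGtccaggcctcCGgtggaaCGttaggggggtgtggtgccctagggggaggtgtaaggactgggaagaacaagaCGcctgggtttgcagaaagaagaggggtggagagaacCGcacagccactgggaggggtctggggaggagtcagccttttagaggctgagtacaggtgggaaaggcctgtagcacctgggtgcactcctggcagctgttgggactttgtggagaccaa
*Sox21*, chr14:118236981-118237280, minus strand: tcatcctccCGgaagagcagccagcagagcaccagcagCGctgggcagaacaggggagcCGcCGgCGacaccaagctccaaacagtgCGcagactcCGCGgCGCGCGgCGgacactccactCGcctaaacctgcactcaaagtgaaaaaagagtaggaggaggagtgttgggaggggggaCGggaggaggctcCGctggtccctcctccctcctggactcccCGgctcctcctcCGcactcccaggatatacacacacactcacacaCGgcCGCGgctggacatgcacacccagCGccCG
*Sox13*, chr1:133424163-133424462, minus strand: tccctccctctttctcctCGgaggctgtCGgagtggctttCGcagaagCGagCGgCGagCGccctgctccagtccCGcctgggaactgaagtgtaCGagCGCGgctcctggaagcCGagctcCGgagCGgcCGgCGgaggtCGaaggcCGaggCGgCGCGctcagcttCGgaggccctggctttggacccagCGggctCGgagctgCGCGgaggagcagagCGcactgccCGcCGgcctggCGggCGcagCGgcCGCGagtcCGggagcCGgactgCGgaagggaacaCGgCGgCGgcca
The printed *Sox2* and *Sox15* windows lay whole within the promoter peak in 4 of 4 Oct4+ libraries, and that of *Sox2* also in 3 of 3 DP libraries. The *Sox21* window lay whole within a peak in each of the 8 libraries that marked it, 2 of Oct4+, 3 of DP and 3 of Pdgfra+ nEnd, and that of *Sox13* in all 10.

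CpG content differed widely among these promoters. *Sox13* held 40 CpG in 300 bases, *Sox2* 27, *Sox21* 22, *Sox11* 21 and *Sox4* 12, beside a median of 7 over 32851 promoters of the table. *Sox15* held 5, at an observed over expected ratio of 0.239, which lies below the median of 0.384, whereas the ratios of the other 5 ran from 0.679 (*Sox4*) to 1 (*Sox13*). *Sox15* was thus the CpG-poorest of the 6 and was marked in Oct4+ nEnd alone, as was *Sox11* with its 21 CpG. The SOX sites ACAATG and ACAAAG and the octamer ATGCAAAT bound by OCT4 were searched on both strands. ACAAAG occurred once in *Sox2* and once in *Sox15*, and 18.7% of all promoters hold it. Neither ACAATG (12.6% of all promoters) nor ATGCAAAT (1.74%) occurred in the 6 windows, so no match overlapped that of another motif.

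Of the 10 members, 8 had a promoter peak in at least 1 library and *Sox9* and *Sox18* in none. *Sox2* and *Sox15* had the stronger peaks in Oct4+ nEnd, *Sox17*, *Sox7* and *Sox21* in DP and Pdgfra+ nEnd, *Sox4* and *Sox13* were marked in all 10 libraries, and *Sox11* had weak peaks in Oct4+ nEnd. The pattern of *Sox2* and *Sox17* was the reason for looking at this family, so their values are a description and carry no test.

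**Figure D1:**
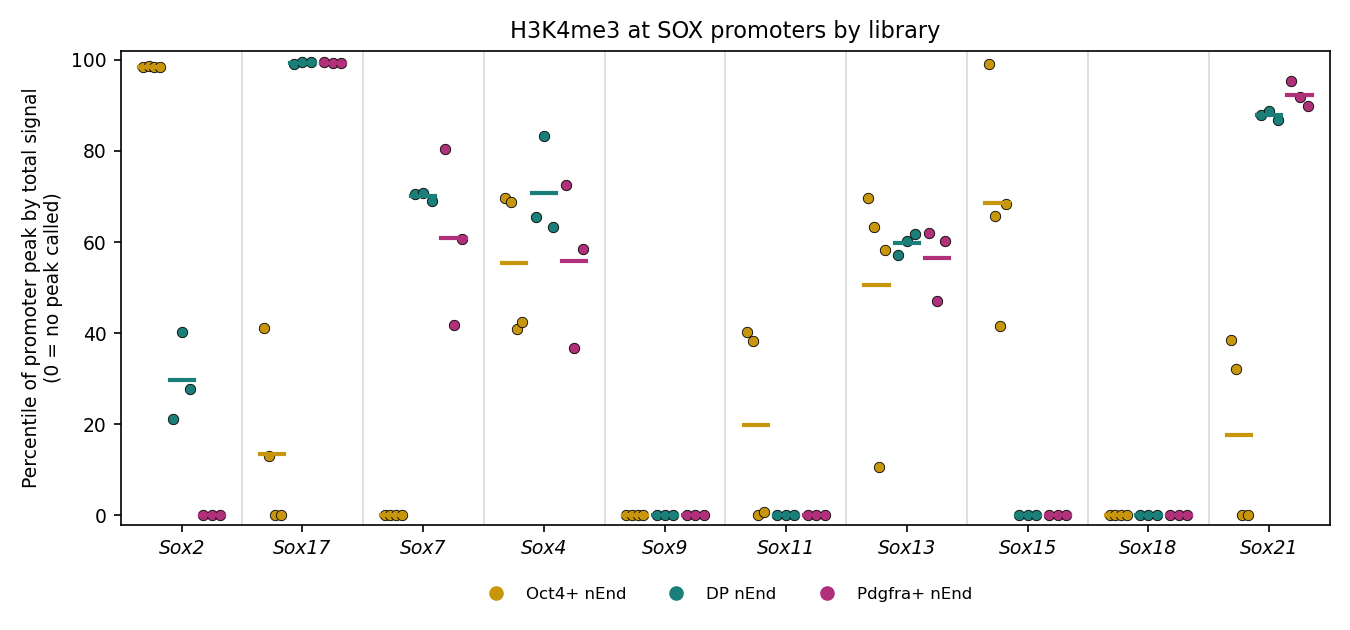
The percentile of each member's promoter peak by total signal (y axis, 0 where no peak was called) for each gene (x axis), with a point per library and a bar at each mean (n = 4 for Oct4+ nEnd and n = 3 for the other populations). *Sox2* lies near the top in Oct4+ nEnd and at 0 in Pdgfra+ nEnd, *Sox17* lies above 99 in the 6 DP and Pdgfra+ libraries, and *Sox4* and *Sox13* overlap among the populations.

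*Sox2* (ENSMUSG00000074637.7, chr3:34650405-34652461, plus strand), the SOXB1 factor of the pluripotent epiblast, was among the strongest peaks of Oct4+ nEnd. By total signal its promoter peak ranked 139 of 9144, 103 of 8098, 56 of 3477 and 75 of 4887 peaks in Oct4+ replicates 1 to 4, which are percentiles of 98.5, 98.7, 98.4 and 98.5. In DP nEnd the peak was present in all 3 libraries at percentiles of 21.2, 40.4 and 27.7, and in Pdgfra+ nEnd it was absent from all 3. The 3 populations did not overlap, and DP nEnd lay between the other populations, nearer to Pdgfra+ nEnd. The means were 98.5 ± 0.14 in Oct4+ nEnd (SD, n = 4) and 29.8 ± 9.75 in DP nEnd (SD, n = 3).

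The highest coverage set the DP peaks of *Sox2* lower still. In Oct4+ nEnd the percentiles by highest coverage were 89.25, 95.8, 96.3 and 96.6, and in DP nEnd they were 1.80, 3.77 and 1.06. The DP peaks of *Sox2* were thus among the lowest of their libraries in height, and their place by total signal came with widths of 3801, 8747 and 4077 bp. In Oct4+ nEnd the peak spanned 11419, 10456, 7432 and 10125 bp, and it covered the whole of the single-exon gene in 4 of 4 libraries. The upstream edge lay 2411 to 3114 bp before the TSS in all 7 libraries with a peak. The downstream edge ran to 5020 to 8870 bp in Oct4+ nEnd and to 1357, 6335 and 1633 bp in DP nEnd, so the populations differed on the side of the gene body, with DP replicate 2 inside the Oct4+ range. When the 3477 strongest peaks of each library were compared, as many as the smallest list holds, *Sox2* stayed at percentiles of 96.0 to 98.4 in Oct4+ nEnd and had no peak in any DP library.

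The *Sox2* locus held another peak in Oct4+ nEnd outside promoters of protein-coding genes. Within 100 kb of the gene, a peak of 5362 bp at percentile 36.7 in replicate 1 and of 3863 bp at 2.05 in replicate 2 lay over promoters of the noncoding genes *Sox2ot* and *Gm42693*, 12779 and 14381 bp downstream of the *Sox2* TSS. The other 8 libraries had no such peak, and Oct4+ replicates 3 and 4 among them have the shortest peak lists.

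*Sox17* (ENSMUSG00000025902.13, chr1:4490931-4497354, minus strand), the SOXF regulator of endoderm, was among the strongest peaks of DP and Pdgfra+ nEnd. It ranked 70 of 8128, 47 of 8836 and 35 of 7575 in DP replicates 1 to 3, at percentiles of 99.1, 99.5 and 99.5. In Pdgfra+ nEnd it ranked 38 of 10545, 44 of 6510 and 56 of 7800, at 99.6, 99.3 and 99.3. In Oct4+ nEnd a peak was called in replicates 1 and 2, at 41.0 and 12.95, and none in replicates 3 and 4. DP and Pdgfra+ nEnd overlapped with means of 99.4 ± 0.21 and 99.4 ± 0.19 (SD, n = 3 each), and both lay above every Oct4+ library. The percentiles by highest coverage again overlapped between DP nEnd (99.1, 99.1 and 99.7) and Pdgfra+ nEnd (99.7, 97.9 and 99.2). Both again lay above Oct4+ nEnd, with 28.8 and 6.72 in the 2 Oct4+ libraries with a peak. Among the 3477 strongest peaks of each library, *Sox17* was in all 6 DP and Pdgfra+ libraries and in no Oct4+ library.

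The *Sox17* peaks differed in which start sites they covered. The gene has 8 annotated TSS, of which 6 lie within the first 1024 bp and 2 lie inside the gene, 3619 and 3750 bp downstream of the first. The 6 upstream TSS windows were marked in 0 of 4 Oct4+ libraries, 3 of 3 DP libraries and 2 of 3 Pdgfra+ libraries, and the 2 internal ones in 2, 3 and 3 libraries. In DP nEnd a single peak of 10941, 12118 and 9694 bp covered the whole gene. In Pdgfra+ nEnd the whole gene lay under 1 peak in replicate 1 (11740 bp), an internal peak of 2384 bp stood alone in replicate 2, and replicate 3 had an internal peak of 5014 bp and a separate one of 2689 bp at the upstream TSS, at percentile 20.98. The Oct4+ peaks, of 3721 and 3378 bp, began 2402 and 3338 bp downstream of the first TSS and thus lay over the internal TSS only. The highest coverage of the main peak lay 4026 to 4657 bp downstream of the first TSS in all 8 libraries with a peak, within exons of the gene. Where a peak had to cover at least 50% of a window, Pdgfra+ replicate 2 no longer counted as marked, and the mean of DP nEnd then exceeded that of Pdgfra+ nEnd by 33.1 percentile points. Pdgfra+ replicate 2 also had the narrowest peaks of all libraries, with a median width of 2204 bp beside 3032 to 4222 bp in the others.

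**Figure D2:**
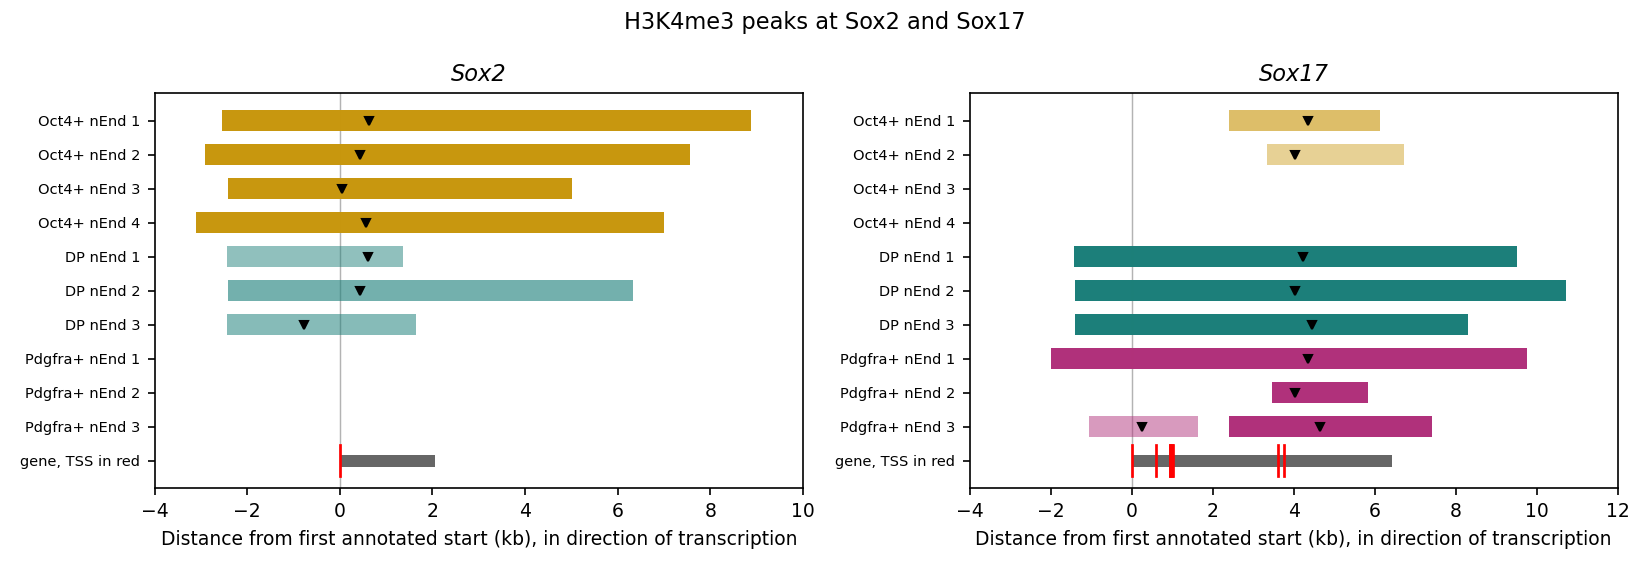
Peaks at *Sox2* and *Sox17* in the 10 libraries (rows), drawn as bars against the distance from the first annotated TSS in kb along the direction of transcription (x axis). Darker bars have a higher percentile by total signal, triangles mark the highest coverage, and the gray bar is the gene with its TSS in red. The *Sox2* bars reach farther into and past the gene in Oct4+ nEnd than in DP replicates 1 and 3, and the *Sox17* bars of Oct4+ nEnd and of Pdgfra+ replicate 2 leave out the upstream TSS.

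*Sox7* (ENSMUSG00000063060.6, chr14:63943673-63950732, plus strand), the second SOXF gene, which is expressed in primitive and parietal endoderm, had no promoter peak in 4 of 4 Oct4+ libraries. Its percentiles by total signal were 70.5, 70.7 and 69.1 in DP nEnd and 80.5, 41.8 and 60.7 in Pdgfra+ nEnd. The DP values lay close together and inside the wider Pdgfra+ range. By highest coverage they were lower, at 35.1, 31.7 and 39.4 in DP nEnd and 47.2, 19.5 and 28.8 in Pdgfra+ nEnd, so that *Sox7* stood below the middle of all 6 libraries where *Sox17* stood at the top. The peaks were broad, with 7838, 8045 and 6335 bp in DP nEnd and 8036, 3608 and 4293 bp in Pdgfra+ nEnd, and reached 1900 to 4009 bp upstream of the TSS. The difference in mean percentile was −70.1 points for Oct4+ minus DP nEnd and −61.0 points for Oct4+ minus Pdgfra+ nEnd. With the 3477 strongest peaks of each library these differences were −29.7 and −17.6 points, and Pdgfra+ replicate 2 then had no *Sox7* peak, so that Oct4+ and Pdgfra+ nEnd overlapped at 0. The exact two-sided permutation test gave p = 0.0286 in both comparisons, the smallest p that 4 against 3 libraries allow, with adjusted p = 0.23 and 0.239 (Benjamini-Hochberg over all genes tested). DP exceeded Pdgfra+ nEnd by 9.07 points (exact permutation p = 0.7), and without Pdgfra+ replicate 2 this difference was −0.546 points.

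*Sox18* (ENSMUSG00000046470.5, chr2:181669836-181671640, minus strand), the remaining SOXF gene, known for its role in blood and lymph vessels, had no promoter peak in any library. *Sox9* (ENSMUSG00000000567.5, chr11:112782224-112787760, plus strand), a SOXE gene of cartilage and testis, likewise had none, and no peak of any kind was called within 100 kb of *Sox9* in the 10 libraries. Around *Sox18*, 2 to 5 peaks per library lay within 100 kb, all at promoters of other protein-coding genes.

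*Sox21* (ENSMUSG00000061517.8, chr14:118233232-118237030, minus strand) belongs to the SOXB2 group, which acts as a repressor and recognizes the same sites as SOX2. Its promoter peak stood at percentiles of 87.9, 88.7 and 86.8 in DP nEnd and of 95.3, 91.9 and 89.9 in Pdgfra+ nEnd. In Oct4+ nEnd it stood at 38.6 and 32.2 in replicates 1 and 2 and was absent from replicates 3 and 4. Each Pdgfra+ value lay above each DP value, and each DP value above each Oct4+ value, so *Sox21* ran opposite to *Sox2* across the 3 populations. By highest coverage the values were 77.7, 80.2 and 77.3 in DP nEnd, 92.8, 75.7 and 81.8 in Pdgfra+ nEnd, and 24.0 and 10.3 in Oct4+ replicates 1 and 2, and DP and Pdgfra+ nEnd then overlapped. The peaks were 3505 to 4823 bp wide except in Pdgfra+ replicate 1, where the peak spanned 8531 bp. The difference in means was −70.1 points for Oct4+ minus DP nEnd (exact permutation p = 0.0286, adjusted p = 0.23) and −74.7 points for Oct4+ minus Pdgfra+ nEnd (exact permutation p = 0.0286, adjusted p = 0.239). DP minus Pdgfra+ nEnd was −4.54 points, with p = 0.1 in the exact permutation test, the smallest that 3 against 3 libraries allow, and adjusted p = 1.0.

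*Sox15* (ENSMUSG00000041287.5, chr11:69655314-69656727, plus strand), the only gene of the SOXG group and a relative of SOX2 known in mouse embryonic stem cells, was marked in 4 of 4 Oct4+ libraries and in no DP or Pdgfra+ library. Its percentiles by total signal were 99.1, 65.6, 41.5 and 68.4 in Oct4+ replicates 1 to 4, and by highest coverage 63.5, 35.3, 2.11 and 42.1. In replicate 1, the highest of the 4, the peak spanned 20328 bp and joined the promoters of *Mpdu1*, *Cd68* and *Eif4a1*, with the highest coverage 16597 bp downstream of the *Sox15* TSS. In replicates 2 to 4 the peak spanned 4431, 4461 and 4983 bp, covered the whole *Sox15* gene and an internal TSS of *Mpdu1* on the opposite strand, and had its highest coverage 476 to 552 bp downstream of the *Sox15* TSS. *Mpdu1* and *Eif4a1* had a promoter peak in all 10 libraries, and in DP and Pdgfra+ nEnd those peaks began downstream of the *Sox15* gene. The mean of 68.7 percentile points in Oct4+ nEnd against 0 in each other population gave exact permutation p = 0.0286 in both comparisons, with adjusted p = 0.23 against DP nEnd and 0.239 against Pdgfra+ nEnd.

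*Sox11* (ENSMUSG00000063632.6, chr12:27334264-27342574, minus strand), a SOXC gene of neural and mesenchymal progenitors, had peaks in 3 of 4 Oct4+ libraries and in none of the other 6. The percentiles by total signal were 40.3, 38.3 and 0.73 in replicates 1, 2 and 4, and by highest coverage 6.29, 5.77 and 0.14. These were low and broad peaks of 5756, 5236 and 6140 bp, which covered 44.8 to 51.7% of the gene. Replicate 3, with the shortest list, had none, so the populations overlapped at 0, and the mean difference of 19.9 points gave exact permutation p = 0.257 against either population (adjusted p = 0.511 against DP nEnd and 0.571 against Pdgfra+ nEnd). The difference was 13.02 points without replicate 1, and by highest coverage it was 3.05 points. Without replicate 3 it was 26.5 points, and *Sox11* was then marked in every Oct4+ library and in none of the others.

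**Figure D3:**
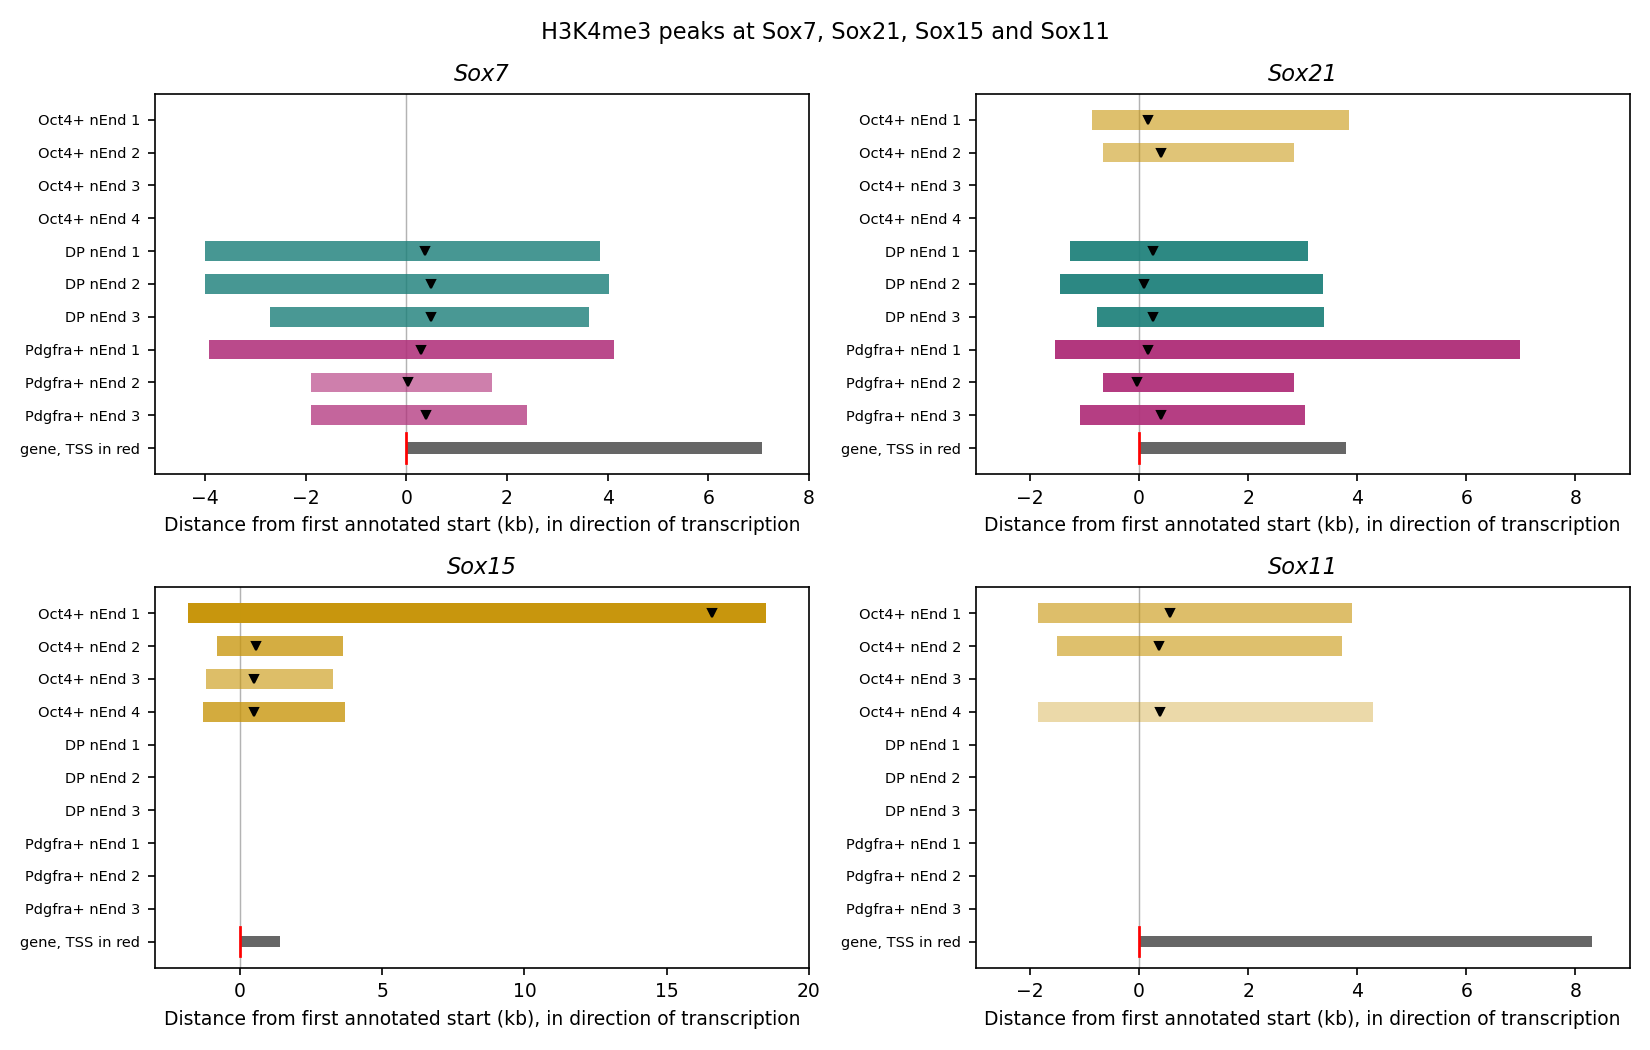
Peaks at *Sox7*, *Sox21*, *Sox15* and *Sox11* in the 10 libraries (rows) against the distance from the TSS in kb along the direction of transcription (x axis), drawn as for *Sox2* and *Sox17*. *Sox7* is empty in Oct4+ nEnd, *Sox15* and *Sox11* are empty in DP and Pdgfra+ nEnd, and the *Sox15* bar of Oct4+ replicate 1 runs to 18489 bp downstream.

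*Sox4* (ENSMUSG00000076431.4, chr13:28948919-28953713, minus strand), a broadly expressed SOXC gene, was marked in all 10 libraries. Its percentiles by total signal were 69.8, 68.7, 40.8 and 42.4 in Oct4+ nEnd, 65.5, 83.3 and 63.2 in DP nEnd, and 72.5, 36.8 and 58.6 in Pdgfra+ nEnd. The 3 populations overlapped, with means of 55.4 ± 16.0 (SD, n = 4), 70.7 ± 10.97 (SD, n = 3) and 55.9 ± 18.0 (SD, n = 3). The differences were −15.2 points for Oct4+ minus DP nEnd (exact permutation p = 0.286), −0.50 points for Oct4+ minus Pdgfra+ nEnd (exact permutation p = 1.0) and 14.7 points for DP minus Pdgfra+ nEnd (exact permutation p = 0.4). The second changed sign when either Oct4+ replicate 3 or 4 or Pdgfra+ replicate 1 or 3 was left out, with values of 0.809 to 7.77 points. The first was −8.94 points without DP replicate 2, and the third was 5.16 points without Pdgfra+ replicate 2, 8.44 without DP replicate 2 and 23.01 without Pdgfra+ replicate 1. With 50% cover the first was −36.1 and the third 27.0 points, and with equal numbers of peaks they were −5.38 and 24.4 points. By highest coverage each DP value, 28.4, 37.0 and 37.0, lay above each Oct4+ value, 27.2, 25.3, 3.57 and 16.1, and Pdgfra+ nEnd with 48.7, 3.09 and 24.0 overlapped both. An upstream peak outside protein-coding promoters lay with its middle 4797 to 5118 bp before the TSS in Oct4+ replicate 1, DP replicate 1 and all 3 Pdgfra+ libraries, at percentiles of 12.2 to 38.8. In DP replicate 2 the *Sox4* peak itself, 10770 bp wide, reached 6886 bp upstream, over the same place, and that library had the highest *Sox4* percentile.

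*Sox13* (ENSMUSG00000070643.11, chr1:133382303-133424377, minus strand), a SOXD gene, was also marked in all 10 libraries. Its percentiles by total signal were 69.8, 63.3, 10.7 and 58.3 in Oct4+ nEnd, 57.2, 60.3 and 61.7 in DP nEnd, and 61.9, 47.1 and 60.2 in Pdgfra+ nEnd. Apart from 10.7 in Oct4+ replicate 3, the values lay between 47.1 and 69.8 in all populations. The differences were −9.21 points for Oct4+ minus DP nEnd, −5.90 for Oct4+ minus Pdgfra+ nEnd and 3.31 for DP minus Pdgfra+ nEnd, with exact permutation p = 0.914, 0.914 and 0.8. Without Oct4+ replicate 3 the first difference was 4.06 and the second 7.36 points. The gene has 5 annotated TSS, and in each library the peak lay over the first only, with 2694 to 4855 bp, and covered 4.77 to 9.29% of the gene. The 4 TSS that lie 31107 to 38851 bp downstream had no peak in any library.

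**Figure D4:**
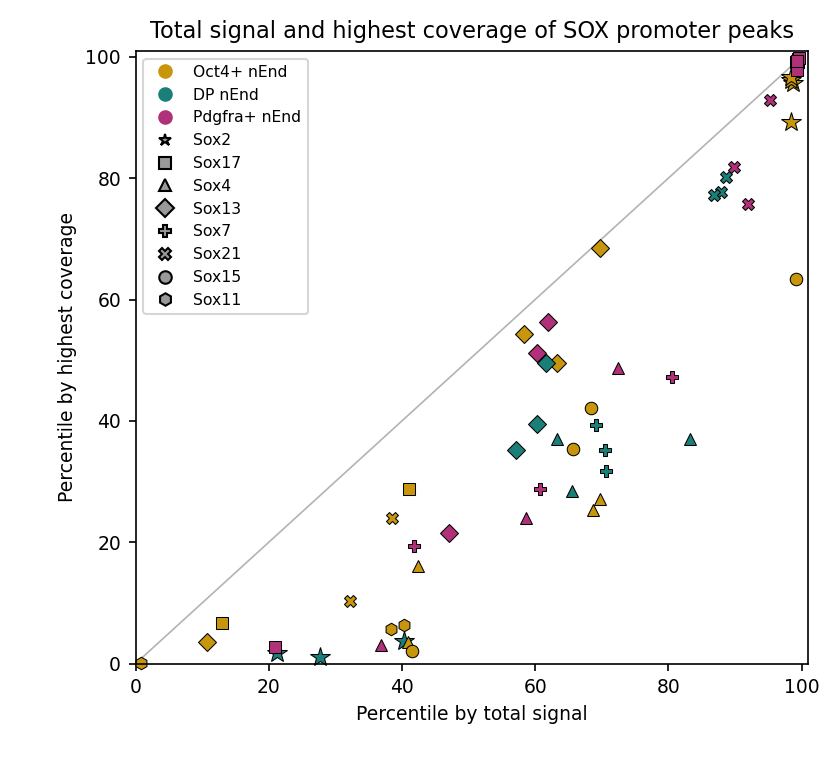
Percentile by highest coverage (y axis) against percentile by total signal (x axis) for each promoter peak of the 8 marked members, with color for the population and shape for the gene, and a gray line where the percentiles are equal. The peaks lie below the line except for *Sox17* in DP replicate 3 and Pdgfra+ replicate 1, and the DP peaks of *Sox2* lie at 1.06 to 3.77 on the y axis at 21.2 to 40.4 on the x axis.

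The counts of members were then set beside the same counts over all genes. *Sox2* and *Sox17* prompted the look at this family, so their part in these counts and in the member medians restates that choice. A gene was tested where at least 1 library of the pair had a promoter peak, and it was called apart where no percentile of one population overlapped those of the other. Between Oct4+ and DP nEnd, 8 members were among 10603 genes tested. Apart and higher in Oct4+ nEnd were 2 members, *Sox2* and *Sox15*, beside 4.61% of all genes tested. Apart and higher in DP nEnd were 3, *Sox17*, *Sox7* and *Sox21*, beside 25.6%. Leaving aside *Sox2* and *Sox17*, *Sox15* remained of the first count and *Sox7* and *Sox21* of the second. Marked in every Oct4+ and in no DP library was 1 member, *Sox15* (0.415% of all genes tested), and the reverse held for *Sox7* (3.99%). The share apart and higher in DP nEnd was large among all genes, and the median difference over all genes was −9.05 points, beside −12.2 over the 8 members. With the 3477 strongest peaks of each library the shares of all genes apart were 17.3% higher in Oct4+ nEnd and 25.9% higher in DP nEnd, so the share beside *Sox2* and *Sox15* depends on this setting.

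Between Oct4+ and Pdgfra+ nEnd, 8 members were among 11614 genes tested, and the same genes were apart. *Sox2* and *Sox15* were higher in Oct4+ nEnd, beside 4.62% of all genes, and both were marked in every Oct4+ and in no Pdgfra+ library, beside 0.672%. *Sox17*, *Sox7* and *Sox21* were higher in Pdgfra+ nEnd, beside 18.8%, and *Sox7* alone was marked in every Pdgfra+ and in no Oct4+ library, beside 2.69%. Here too *Sox2* and *Sox17* restate the choice of the family, which leaves *Sox15*, *Sox7* and *Sox21*. *Sox17* was no longer apart where a peak had to cover 50% of a window, with a difference of −56.05 points, and with the 3477 strongest peaks *Sox7* was no longer apart and *Sox4* became apart and higher in Oct4+ nEnd, beside 18.3% of all genes under that setting. The median difference was −7.44 points over all genes and −3.20 over the 8 members. Both comparisons use the same 4 Oct4+ libraries and are not independent.

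Between DP and Pdgfra+ nEnd, 6 members were among 11222 genes tested. *Sox2* was apart and higher in DP nEnd (2.78% of all genes), and it was marked in every DP and in no Pdgfra+ library (0.214%). As *Sox2* prompted the look at this family, both calls restate that choice, and no other member had either. *Sox21* was apart and higher in Pdgfra+ nEnd (4.81%). With the 3477 strongest peaks of each library *Sox4* in place of *Sox2* was apart and higher in DP nEnd (9.84% of all genes), and 0 members were marked in every DP and in no Pdgfra+ library. By highest coverage *Sox21* was no longer apart, and without Pdgfra+ replicate 1 *Sox7* and *Sox4* were apart beside *Sox2*. There were 0 members marked in every Pdgfra+ and in no DP library, beside 0.00891%, which is 1 gene. The median difference was −0.829 points over all genes and 6.19 over the 6 members.

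No single gene passed the exact permutation test after adjustment in these data. The count at adjusted p under 0.05 was 0 in all 3 comparisons, and the smallest adjusted p was 0.23, 0.239 and 1.0. At an unadjusted p under 0.05 there were 1320 genes between Oct4+ and DP nEnd and 1387 between Oct4+ and Pdgfra+ nEnd. Between DP and Pdgfra+ nEnd there could be none, since 3 against 3 libraries allow no p below 0.1, so this 0 is set by the design. In the other comparisons the smallest p of the exact permutation test is 0.0286. An adjusted p under 0.05 would there need most of the genes tested to reach that value. Those 0 thus also follow from the number of libraries and say little about single genes.

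The consensus lists of the authors, which give positions only, held promoter peaks of 7 members among 7860 peaks of Oct4+ nEnd. The DP list held 6 members among 8101 peaks and the Pdgfra+ list 5 among 7781. *Sox2* was in the Oct4+ list with 11985 bp and in the DP list with 8779 bp. *Sox17* was in all 3 lists, with 4314 bp in Oct4+ nEnd, 12155 bp in DP nEnd and 11740 bp in Pdgfra+ nEnd. *Sox7* was in the DP and Pdgfra+ lists, *Sox15* and *Sox11* were in the Oct4+ list alone, and *Sox4*, *Sox13* and *Sox21* were in all 3. The consensus peak of *Sox15* spanned 20916 bp and so holds the joined peak of replicate 1.

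Of the 9 other SOX genes of the mouse, 6 were marked in at least 1 library and 0 were apart in any comparison. Of the 9, 5 were tested between Oct4+ and DP nEnd, 6 between Oct4+ and Pdgfra+ nEnd and 5 between DP and Pdgfra+ nEnd, beside 2.78 to 25.6% of all genes apart in a given direction. *Sox12*, the remaining SOXC gene, was marked in all 10 libraries at percentiles of 62.1 to 89.8. *Sox5* and *Sox6*, the SOXD relatives of *Sox13*, were marked in no Oct4+ library, in 2 of 3 DP libraries and in 2 of 3 Pdgfra+ libraries, at up to 25.9 and 44.3. *Sox1* and *Sox3*, the SOXB1 relatives of *Sox2*, were weak, with *Sox1* at 17.7 and 1.22 in Oct4+ replicates 1 and 2 and *Sox3* at 1.39 in Pdgfra+ replicate 1. *Sox8* was marked in 4 libraries at up to 19.3, and *Sox10*, *Sox14* and *Sox30* in none.

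Of 11 genes that encode partners and co-factors of SOX proteins, 2 were apart and higher in Oct4+ nEnd and 5 were apart and lower, against DP and against Pdgfra+ nEnd alike, with the shared Oct4+ libraries. Of all genes, 4.61% were apart and higher in Oct4+ nEnd and 25.6% lower against DP nEnd, and 4.62% higher and 18.8% lower against Pdgfra+ nEnd. *Pou5f1* and *Nanog*, partners of SOX2 in pluripotency, were the 2, and both were also apart and higher in DP than in Pdgfra+ nEnd, beside 2.78% of all genes. *Nanog* lay at 99.3, 99.3, 97.5 and 96.8 in Oct4+ nEnd and at 18.8, 19.6 and 11.5 in DP nEnd, with no peak in Pdgfra+ nEnd, close to the values of *Sox2*, whereas *Pou5f1* kept 62.2 to 72.4 in DP nEnd by total signal. By highest coverage *Pou5f1* was low there too, at 6.80 to 8.45, so this contrast depends on the measure. The 5 were *Gata4*, *Gata6*, *Foxa2*, *Klf4* and *Tcf7l1*, of which *Klf4* overlapped in both comparisons by highest coverage. *Foxa2*, a factor of endoderm, had no promoter peak in Oct4+ nEnd, as *Sox7* had none, and lay at 98.2 or above in the 6 other libraries. *Gata6*, the factor of primitive endoderm, had weak peaks in 3 Oct4+ libraries at 31.9, 21.01 and 12.2 and lay at 99.88 or above elsewhere. *Klf4* lay at 94.96 to 97.9 in Oct4+ nEnd and at 98.7 to 99.7 elsewhere, so its percentiles by total signal were high in all populations. *Tcf7l1*, a WNT pathway repressor, was the gene of the 11 that was apart and higher in Pdgfra+ than in DP nEnd, with 96.4 to 98.8 against 95.7 to 96.3, beside 4.81% of all genes. This call ended by highest coverage and with equal numbers of peaks, and with equal numbers *Nanog* no longer was apart between DP and Pdgfra+ nEnd. The other 4 genes were apart in no comparison by total signal over all peaks, but *Ctnnb1* was apart and higher in Oct4+ nEnd against both populations by highest coverage and with equal numbers. *Pou2f1*, a POU factor, and *Ctnnb1*, which encodes beta-catenin, were marked in all 10 libraries, at 73.3 to 90.8 and at 47.2 to 83.97. *Pou3f1*, another POU factor, was marked in 4 libraries at up to 33.1, and *Hnf4a*, a factor of endoderm, in 2 at up to 22.9.

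**Figure D5:**
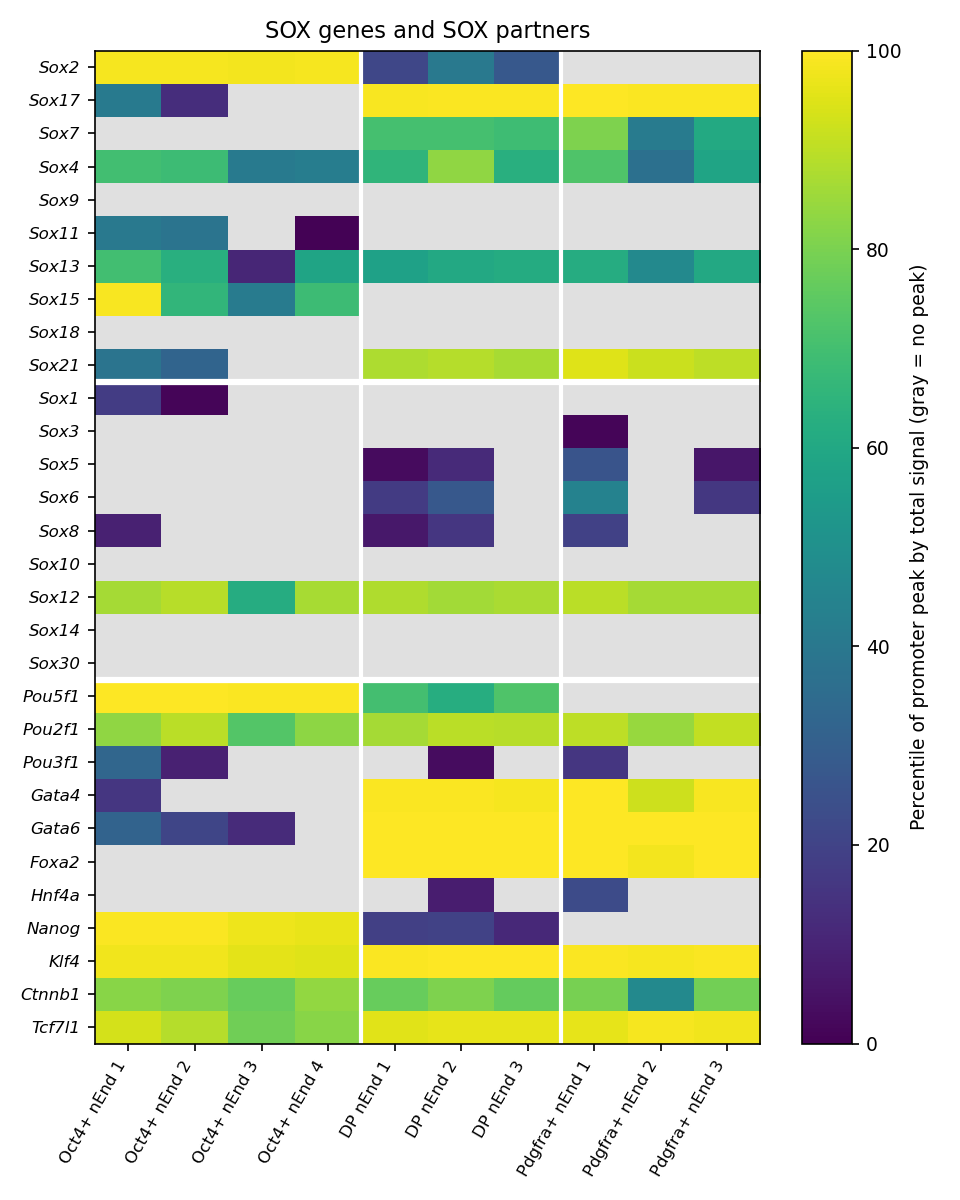
Percentile of the promoter peak by total signal (color, gray where no peak was called) in the 10 libraries (columns) for the 10 members, the 9 other SOX genes and the 11 partner genes (rows, in blocks). *Nanog* and *Pou5f1* follow *Sox2* in being marked in Oct4+ and DP nEnd and not in Pdgfra+ nEnd, and *Foxa2* is gray in Oct4+ nEnd like *Sox7*.

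Over all protein-coding genes, the pattern most like that of *Sox2*, by the mean absolute difference in percentile over the 10 libraries, was that of *Nodal* with 1.96 points, followed by *Lemd1* with 3.89, *Nanog* with 4.33, *Jam2* with 5.05 and *Zfp42* with 5.67. *Nodal*, a signalling ligand of the epiblast, lay at 95.7 to 99.1 in Oct4+ nEnd and at 30.4 to 37.9 in DP nEnd, with no peak in Pdgfra+ nEnd. Nearest to *Sox17* were *Gdpd5* with 1.09 points, *Col4a1* and *Col4a2* with 1.24 each, *Eva1a* with 1.45 and *A530084C06Rik* with 2.11. *Col4a1* and *Col4a2*, collagen chains of the basement membrane, have a shared peak, which lay at 99.9 or above in the 6 DP and Pdgfra+ libraries, at 32.8 and 13.8 in Oct4+ replicates 1 and 2 and at 0 in replicates 3 and 4. These genes were picked for the smallest difference to *Sox17* over the same 10 libraries, so sharing its libraries with and without a peak follows from that choice. The 2 Oct4+ libraries without a *Sox17* peak are those with the fewest peaks, whose part in the absence was not tested.

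In order of mean percentile by total signal, Oct4+ nEnd had *Sox2* first at 98.5 ± 0.14, then *Sox15* at 68.7 ± 23.6, *Sox4* at 55.4 ± 16.0 and *Sox13* at 50.5 ± 26.9 (SD, n = 4), of which the last 3 do not differ beyond their spread. Below these were *Sox11* at 19.9 ± 22.5, *Sox21* at 17.7 ± 20.6 and *Sox17* at 13.5 ± 19.35 (SD, n = 4), which overlap each other and reach 0. DP nEnd had *Sox17* first at 99.4 ± 0.21, *Sox21* at 87.8 ± 0.94, then *Sox4* at 70.7 ± 10.97, *Sox7* at 70.1 ± 0.86 and *Sox13* at 59.7 ± 2.29, with *Sox2* last at 29.8 ± 9.75 (SD, n = 3), and the range of *Sox4* overlaps that of *Sox7* and not that of *Sox21*. Pdgfra+ nEnd had *Sox17* at 99.4 ± 0.19, *Sox21* at 92.4 ± 2.72, and then *Sox7* at 61.0 ± 19.4, *Sox13* at 56.4 ± 8.14 and *Sox4* at 55.9 ± 18.0 (SD, n = 3), whose ranges overlap. By highest coverage the middle of each order differed. *Sox13* (44.0) then came before *Sox15* (35.8) and *Sox4* (18.0) in Oct4+ nEnd and, at 41.4, before *Sox7* (35.4) and *Sox4* (34.1) in DP nEnd. In Pdgfra+ nEnd *Sox13* (43.0) came before *Sox7* (31.8). By both measures *Sox17* came before *Sox21* in DP and Pdgfra+ nEnd, and *Sox2* was first in Oct4+ nEnd.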

How the data were processed

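H3K4me3 CUT&Tag libraries were grouped by the sorted population given in the labels. The submitters' processing notes name mm10 (the same assembly as GRCm38), Bowtie2, SAMtools 1.12, bedtools 2.26.0 and SEACR. Per the study's methods, coverage came from BEDtools, and the authors ran SEACR against IgG (stringent) for peaks and DiffBind for consensus lists. The deposited signal values are the total and the highest coverage per peak, not scaled between libraries. The score column of the deposited consensus lists is constant and was not used. The depth is unknown, so no interval was computed, and labels do not say how cultures relate, so p-values measure the spread between these libraries.

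Percentiles were mid-ranks within a library. A gene was compared by the exact two-sided permutation test of the difference in mean percentiles, with Benjamini-Hochberg adjustment over all genes tested. Alternatives were highest coverage, windows of 2500 bp on each side, a peak covering 50% of a window, the 3477 strongest peaks per library, protein-coding transcripts only, a replicate block and leaving out each library. The members, lists and named genes (members, other SOX genes, partners, genes sharing a peak, the 5 most similar to *Sox2* and to *Sox17*) were chosen with earlier results of these data known. The code was tested on simulated data. Python 3.11.15 was used with scipy 1.17.1, pandas 2.3.3 and numpy 2.4.6, and figures were drawn in matplotlib 3.10.9. Protein sequences were not analysed here, and 1 gene fixed as a partner beside the 11 given is not reported here.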

Additional observations from a re-analysis of the deposited data

Results flagged for a closer look

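In Oct4+ nEnd, 12 sets of 4 values without a 0 (percentile by total signal, percentile by highest coverage and peak width of the members) were checked for a library far from the others by Dixon's ratio, for which chance marks about 1 in 20 sets, and 2 exceeded the critical value for 4 samples. The percentile of *Sox2* by highest coverage was 89.25 in replicate 1, against 95.76 to 96.61 in the other 3 libraries, whereas by total signal the 4 libraries lay within 98.4 to 98.7. The width of the *Sox15* peak was 20328 bp in replicate 1, against 4431 to 4983 bp in the other 3, and this was the peak that joined *Sox15* to the promoters of *Mpdu1*, *Cd68* and *Eif4a1*. Without replicate 1, *Sox2* and *Sox15* were still the members apart and higher in Oct4+ nEnd.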

How the results depend on the processing

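Of the recomputed counts of members, 133 stayed within 1.5 times their value and 7 did not, but a stable count can hide a change of members. Between Oct4+ and Pdgfra+ nEnd, 50% cover removed *Sox17* from the members apart and higher in Pdgfra+ nEnd, and equal numbers of peaks removed *Sox7* and added *Sox4* to those higher in Oct4+ nEnd. With the 3477 strongest peaks per library, the members with a peak in each library of the first population and no library of the second became 2 for Oct4+ against DP nEnd (*Sox2* and *Sox15*), 3 for DP against Oct4+ nEnd (*Sox17*, *Sox7* and *Sox21*), 2 for Pdgfra+ against Oct4+ nEnd (*Sox17* and *Sox21*) and 0 for DP against Pdgfra+ nEnd, beside 4.94, 7.63, 7.84 and 1.32% of all genes under the same setting, and *Sox4* replaced *Sox2* as the member apart and higher in DP than in Pdgfra+ nEnd. By highest coverage 0 members were apart and higher in Pdgfra+ than in DP nEnd. Leaving out a library gave 1 to 3 members apart and higher in DP than in Pdgfra+ nEnd, with 3 (*Sox2*, *Sox7* and *Sox4*) without Pdgfra+ replicate 1, and 1 to 2 marked in every Oct4+ and in no DP library, with 2 (*Sox11* and *Sox15*) without Oct4+ replicate 3. Differences in mean percentile that changed sign were none of those between populations that did not overlap in the report. *Sox13* became 2.61 by highest coverage and 16.2 with equal numbers of peaks for Oct4+ minus DP nEnd, 1.01 and 17.9 for Oct4+ minus Pdgfra+ nEnd, and −1.60 by highest coverage for DP minus Pdgfra+ nEnd. Leaving out a library moved these 3 differences over −15.6 to 4.06 (4.06 without Oct4+ replicate 3), −12.3 to 7.36 (7.36 without the same library) and −1.37 to 6.06 (−1.37 without Pdgfra+ replicate 2). *Sox4* Oct4+ minus Pdgfra+ nEnd became 19.0 with equal numbers and 3.83 under the replicate block, and ran from −10.1 to 7.77 when a library was left out. *Sox17* DP minus Pdgfra+ nEnd became 0.364 by highest coverage and 33.1 with 50% cover, and ran from −0.112 to 0.0876 when a library was left out. *Sox7* DP minus Pdgfra+ nEnd ran from −0.546 (without Pdgfra+ replicate 2) to 18.8. The cause was not tested. Libraries of the same replicate number were not treated as pairs, since the labels do not pair them and of 9 correlations of their deviations (−0.203 to 0.209) 3 exceeded 0.1 and 6 did not, and pairing by number, whose smallest p is 0.25, left the 6 counts of members apart within 1.5 times. The unknown depth limits each absent peak.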
